A study of Drosophila melanogaster with 2 samples.

Results

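The ecdysone response regulators described here are 10 genes taken by name from the Ensembl annotation of the fly: EcR, usp, br, Eip74EF, Eip75B, Eip78C, Hr3, Hr4, ftz-f1 and Sox14. All 10 were matched among 18164 annotated genes, 13945 of them protein-coding. They were chosen by name, with earlier results of these data known. The regions counted for a gene are those whose summit lay within 500 bp of one of its transcription start sites (TSSs) or elsewhere in its span. By that rule the 10 genes held 24 of the 3438 peaks that passed the authors' threshold on the irreproducible discovery rate (IDR), and 144 of the 24963 regions of the list from which those peaks were taken.

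The regions come from chromatin immunoprecipitation with sequencing of Drosophila melanogaster embryos, 0 to 24 h old and of mixed sex. The embryos carried a stable transgene of E(var)3-9 fused at its C-terminus to green fluorescent protein (GFP), and chromatin was precipitated through an antibody to GFP. There was 1 group, E(var)3-9-GFP, with 2 biological replicates of the same line, numbered 2 and 3 in the labels, and no treatment, mutant or untagged group was compared. Whole embryos over the full span of embryogenesis were used, so a region cannot be assigned to a tissue or an hour, and what drives the transgene is not stated in the labels. E(var)3-9 is known from genetics as a modifier of position-effect variegation, in which a gene moved beside heterochromatin is shut off in some cells and not in others.

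Ecdysone is the steroid hormone that times moulting and metamorphosis, and a pulse of it also accompanies the movements of the middle of embryogenesis. It acts through a heterodimer of the nuclear receptors EcR and Usp. In the classical model, the liganded receptor switches on a small set of early genes for transcription factors, among them br, Eip74EF and Eip75B, and these together with further nuclear receptors such as Hr3, Hr4, Eip78C and ftz-f1 set the order and the timing of the later responses. Many of these genes are long, and they carry widely spaced alternative promoters that start different protein isoforms.

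All 10 genes held at least 1 IDR peak, but only Sox14, Eip75B and usp held one at a promoter. The other 21 peaks lay in introns of 8 genes, and each of those 8 genes spans at least 30 kb. The strongest peak of the set was at the promoter of Sox14, and the next ones lay inside Hr3 and Hr4. The sequences under 6 of the 21 intronic summits are shown first, as examples: the strongest peaks of Hr4, br and Eip74EF, the next peak of Hr4, whose window holds CGATA, and a window each of Hr4 and Eip75B with letters of the CTCF core.

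Each line gives 151 bases of the plus strand of dm6, centred on the joint summit, read from the RefSeq genome of Release 6. Capitals mark CGATA, the core bound by the boundary factor BEAF-32, or AGNTGGCGC, letters of the core bound by the insulator protein CTCF, on either strand. All other letters are in lower case. Motifs are counted below in wider windows of 201 bases, and in that of br CGATA occurs 2 times, outside the bases printed. The CTCF letters were picked only after the sequences were read. The windows are chrX:1951850-1952000 and chrX:1963872-1964022 for the 2 strongest peaks of Hr4, chrX:1953069-1953219 for another peak of Hr4, chrX:1618801-1618951 for br, chr3L:17611432-17611582 for Eip74EF and chr3L:18019734-18019884 for Eip75B.
Hr4 strongest: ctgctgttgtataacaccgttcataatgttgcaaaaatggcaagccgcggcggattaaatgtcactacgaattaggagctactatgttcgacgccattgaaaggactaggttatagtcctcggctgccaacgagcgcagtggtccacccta
Hr4 next: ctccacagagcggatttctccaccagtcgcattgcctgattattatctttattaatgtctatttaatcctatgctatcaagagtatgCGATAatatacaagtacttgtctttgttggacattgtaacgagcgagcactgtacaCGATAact
Hr4 with CTCF letters: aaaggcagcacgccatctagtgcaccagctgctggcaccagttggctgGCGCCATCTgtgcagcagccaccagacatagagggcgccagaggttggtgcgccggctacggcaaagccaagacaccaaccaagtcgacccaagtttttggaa
br: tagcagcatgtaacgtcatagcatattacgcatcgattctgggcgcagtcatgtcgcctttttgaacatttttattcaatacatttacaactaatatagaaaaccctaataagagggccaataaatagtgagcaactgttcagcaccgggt
Eip74EF: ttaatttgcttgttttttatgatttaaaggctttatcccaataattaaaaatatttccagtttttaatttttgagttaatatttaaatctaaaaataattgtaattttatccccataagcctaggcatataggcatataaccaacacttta
Eip75B with CTCF letters: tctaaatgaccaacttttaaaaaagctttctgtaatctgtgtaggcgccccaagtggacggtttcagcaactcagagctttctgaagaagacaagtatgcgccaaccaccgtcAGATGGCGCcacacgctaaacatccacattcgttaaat

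The windows differ in base composition as well as in motif letters. The Eip74EF window is mostly A and T, with 74.6% A+T over the 201 bases around the summit, while the Hr4 window with CTCF letters has 47.8%, the lowest of the 24. The strongest window of Hr4 has 51.2% A+T and holds none of the motifs counted. The values of all 24 peaks and the motif counts are taken up after the genes.

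Signal values below are those of the authors' caller. They have no stated scale, are larger for stronger regions, and are given for the joint list made from both replicates unless a replicate is named. Ranks run from 1, the strongest region of a list. The IDR peaks were the 3438 strongest regions of the joint list, so that the lowest of them, at 58.2, marks the threshold. The depth of the libraries is unknown, and with 1 group no test was made.

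The receptor genes differed in where their peak lay. EcR encodes the ecdysone receptor, and its span of 81.2 kb on the minus strand of 2R has 4 distinct TSSs and 22 joint regions. Only 1 of these regions passed the IDR threshold, at chr2R:6151017-6151436 with a signal of 111 (rank 1184). It measured 60.9 (rank 1340) in replicate 2 and 55.6 (rank 849) in replicate 3. The summit lay in an intron of the 3 longer transcripts EcR-RA, EcR-RD and EcR-RE, 5902 bp downstream of the TSS that EcR-RD and EcR-RE share. The promoters of EcR themselves had weak regions, the strongest with a signal of 34.4 (rank 7131) 399 bp upstream of EcR-RD, below the IDR threshold.

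The partner gene usp, the fly homologue of the vertebrate retinoid X receptors, is the shortest of the set at 3.514 kb of X. Its IDR peak at chrX:2041305-2041724 had a signal of 83.5 (rank 1951), with 48.6 (rank 2016) in replicate 2 and 37.6 (rank 1768) in replicate 3. The summit fell 203 bp upstream of the usp-RA start and inside the 5'UTR of usp-RB. A TSS of CG4313 also lies within 500 bp of that summit, so the peak is not particular to usp. The start of usp-RB, which a transcript of Actn shares, had a region of 46.8 (rank 4639), with 20.4 in replicate 2 and 28.3 in replicate 3, which did not pass. Of the 2 promoters of usp, the internal one had the higher signal in both replicates.

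Among the early transcription factor genes, Sox14 stood far above the rest. Sox14 encodes an HMG-box factor that is induced by ecdysone and is known for its role in pruning neurons. Its peak at chr2R:23978393-23978709 had a signal of 519 and rank 27 in the joint list, and it also ranked 27 in replicate 2, at 288, and 27 in replicate 3, at 235. The summit lay 260 bp upstream of Sox14-RC, the outermost of 3 starts, and summits in the replicates fell within 6 bp of it. By signal it was number 28 among the 2302 protein-coding genes with an IDR peak at a promoter. The promoter peaks directly before and after it in joint rank belonged to Tina-1, at 523, and Fkbp14, at 504. The other 3 regions in Sox14 were all weak, at most 29.6.

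Eip75B encodes a nuclear receptor related to vertebrate Rev-erb, and its 113.7 kb of 3L carry 7 starts, each beginning a different transcript. One start was occupied by an IDR peak. This was the start of Eip75B-RC, with a summit 36 bp downstream of it and a region at chr3L:17999575-17999994, a signal of 160 and rank 560. The replicates ranked it differently: 134 (rank 235) in replicate 2 and 32.6 (rank 2242) in replicate 3, with a summit 101 bp away in the latter. The remaining 6 starts had no IDR peak. At 5 of them a weak region was listed, from 17.9 at Eip75B-RG to 35.8 at Eip75B-RA, and at Eip75B-RF there was none.

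Inside Eip75B, 4 further IDR peaks lay between the starts of Eip75B-RB and Eip75B-RC, in introns of the longer transcripts. The strongest measured 131 (rank 843), with 73.1 and 47.8 in replicates 2 and 3. The next, whose sequence is shown above, measured 111 (rank 1171), and here the replicates parted, with 88.2 (rank 635) in replicate 2 and 14.1 (rank 12975) in replicate 3. The others measured 71.6 and 64.9, and that of 64.9 had no summit of replicate 3 within 150 bp. The intronic peaks of Eip75B were thus not all carried by both replicates. In all, Eip75B held 33 joint regions, the most of the 10 genes.

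br, which encodes the BTB zinc-finger proteins of the Broad complex, had the most starts and the fewest regions for its length. None of its 9 distinct TSSs had a joint region within 500 bp, and its 89.7 kb of X held 6 regions. The only IDR peak, at chrX:1618666-1619085, had a signal of 149 (rank 650), with 73.3 (rank 926) in replicate 2 and 76.0 (rank 461) in replicate 3. It lay in an intron of 14 of the 16 transcripts, 3432 bp upstream of the start of br-RS. It also lay 721 bp upstream of a TSS of Mur2B, a gene whose span also holds the peak, and this is the nearest coding TSS. Mur2B was named after the distances were seen.

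Eip74EF encodes ETS-domain factors from nested transcription units, and it too had no joint region within 500 bp of any of its 3 starts. Its 2 IDR peaks lay in the first intron of the long transcripts, 7818 and 15588 bp downstream of their shared start. The nearer one measured 93.4 (rank 1586), with 65.0 (rank 1205) in replicate 2 and 27.8 (rank 2845) in replicate 3. The farther one measured 72.6 (rank 2473), with 45.9 and 25.4. Each was found by both replicates in their strongest 3438 regions, and each ranked higher in replicate 2. A region of 55.4 near the 3' end of the gene lay just under the threshold.

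**Figure D1:**
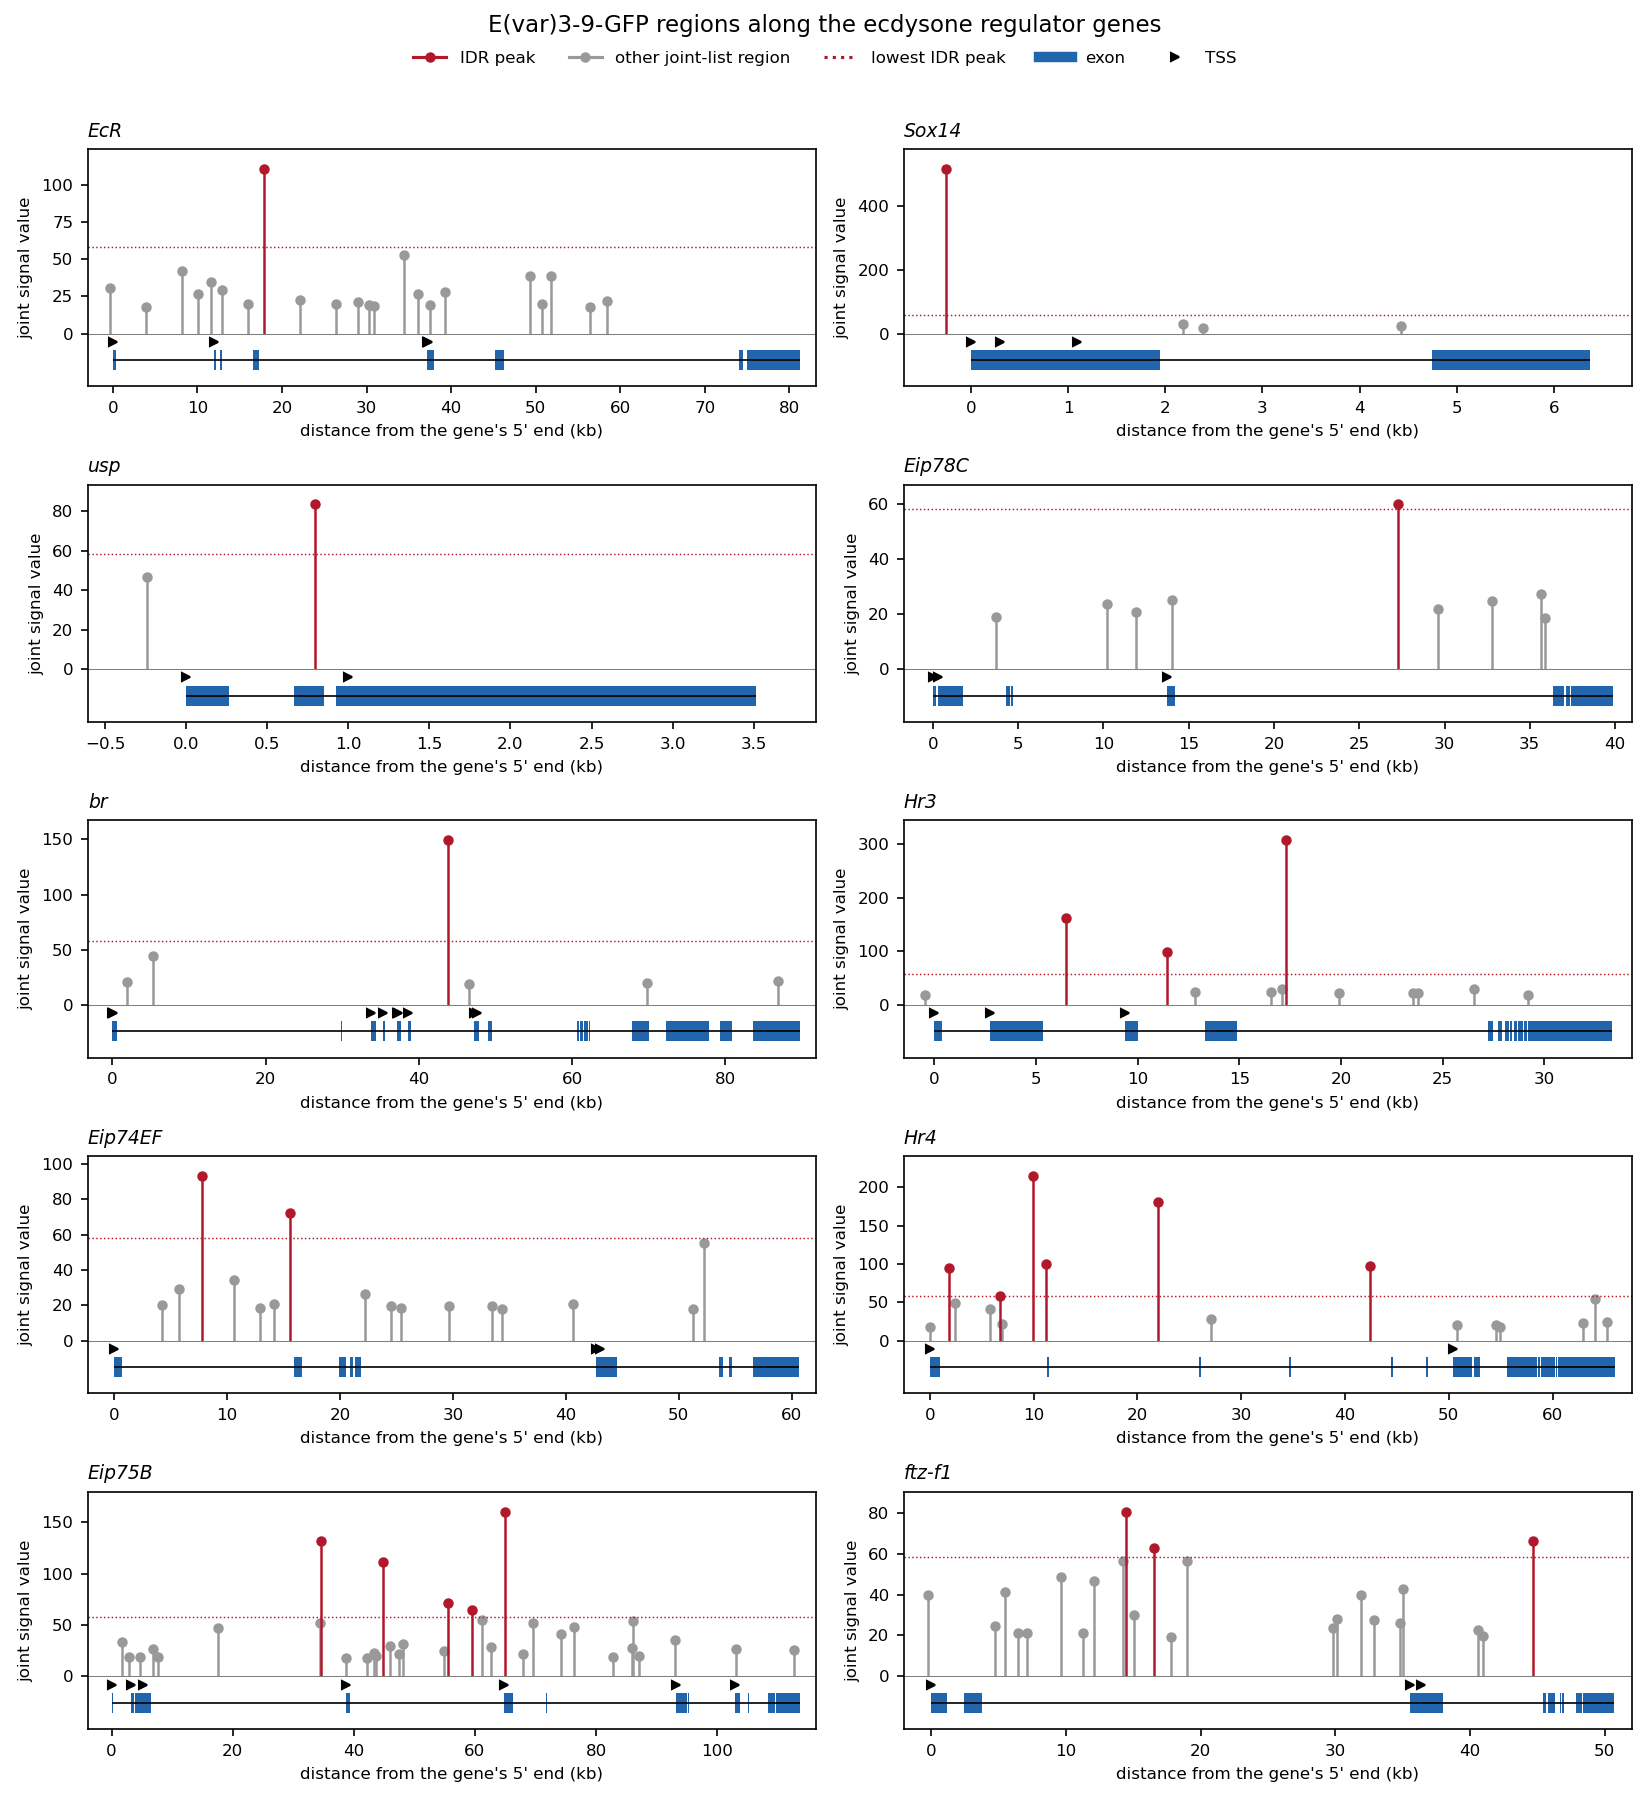
Joint signal value (vertical axis, caller's score, separate scale for each gene) of every region counted for the 10 genes, against distance in kb from the 5' end of the gene. Red stems are the 24 IDR peaks, grey stems the other joint regions, blue boxes exons and arrowheads distinct TSSs. Peaks at a start are seen only in Sox14, usp and Eip75B, and the other red stems stand inside introns.

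Like EcR, br and Eip74EF, the nuclear receptor genes that act later in the cascade carried their IDR peaks in introns alone. Hr3, the fly relative of the vertebrate ROR receptors, represses early genes and activates ftz-f1. It is 33.4 kb long on 2R and held 3 IDR peaks. The strongest, at chr2R:10219928-10220165, had a signal of 307 (rank 115), with 187 (rank 91) in replicate 2 and 122 (rank 152) in replicate 3. It lay 7909 bp downstream of the innermost start and was the strongest peak of the set away from a promoter. The next, 2905 bp upstream of that start, measured 161 (rank 551), with 105.5 and 55.2. The remaining one, 2072 bp downstream of it, measured 99.0 (rank 1436), and it ranked 1921 in replicate 2 and 1198 in replicate 3. Each replicate listed all 3 in its top 3438. The promoters of Hr3 were nearly bare, with a single joint region of 18.9 at the outermost start. CG12912, within whose span all 3 peaks also lie, and CG46321, within whose span 2 of them lie, each share a start with Hr3.

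Hr4, a nuclear receptor gene known for repressing early genes at the onset of metamorphosis, held the most IDR peaks of the set, 6 over 66.0 kb of X. They stretched from 1852 to 42392 bp behind the outer start, and all lay between its 2 starts. The strongest, at chrX:1951819-1952022, measured 215 (rank 273), with 132 (rank 239) in replicate 2 and 82.2 (rank 393) in replicate 3. The next, at chrX:1963838-1964004, measured 181 (rank 438), with 113 (rank 351) and 62.3 (rank 666). These were strong in both replicates. Of the other 4, at 99.5, 96.9, 95.3 and 58.3, the first 3 had matches in the top 3438 of each replicate, and that of 58.3 (rank 3424) fell to rank 9243 in replicate 3. The 2 starts of Hr4 had only weak regions, at 17.8 and 20.2.

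ftz-f1 encodes the nuclear receptor that makes prepupal tissue competent to respond to the next pulse, and in the early embryo an isoform acts with the segmentation factor Ftz. Its 50.7 kb of 3L held 23 joint regions and 3 IDR peaks, all in the lower part of the IDR range. They measured 80.6 (rank 2074), 66.1 (rank 2873) and 62.6 (rank 3096). In replicate 2 they measured 57.6, 39.9 and 28.5, and in replicate 3 24.5, 27.3 and 29.3, so that their order was reversed between the replicates. At 56.3 and 56.2, 2 further regions of ftz-f1 were the closest below the threshold in the set. The region of 56.3 overlaps the peak of 80.6, and the replicate 2 summit of 57.6 was matched to both. That summit lay 125 bp from the summit of the peak and 79 bp from that of the weaker region. The region at the start of ftz-f1-RB, 233 bp upstream, measured 39.7, with 36.1 (rank 3305) in replicate 2 and no summit of replicate 3 within 150 bp of its own.

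Eip78C, a nuclear receptor gene related to Eip75B, had the lowest top signal of the set. Its only IDR peak, at chr3L:21253686-21254105, measured 59.9 (rank 3276), close to the threshold of 58.2. It measured 38.2 (rank 3017) in replicate 2 and 20.6 (rank 4887) in replicate 3, where it was not among the 3438 strongest. The summit lay 13549 bp downstream of Eip78C-RB, and the nearest coding TSS was that of CG43218, 4124 bp away. Likewise the nearest coding TSS to the ftz-f1 peak of 66.1 was that of Atg3. These genes were named after the distances were seen.

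Over the 10 genes, occupancy inside the gene stood further from that of other genes than occupancy of promoters did. An IDR peak stood within 500 bp of a start in 3 of 10 members, against 16.5% of all protein-coding genes. Any IDR peak was held by 10 of 10, against 20.6%, and one in the span outside the promoters by 8 of 10, against 5.95%. With the weaker joint regions included, 8 of 10 had one at a promoter, against 42.4%, and 10 of 10 had one anywhere, against 53.7%. Counted by start, 3 of the 39 distinct TSSs of the members had an IDR peak, against 14.6% of all TSSs of protein-coding genes, and 18 had a joint region, against 39.7%. Both shares are near the background, and 9 of the starts belong to br and 7 to Eip75B.

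**Figure D2:**
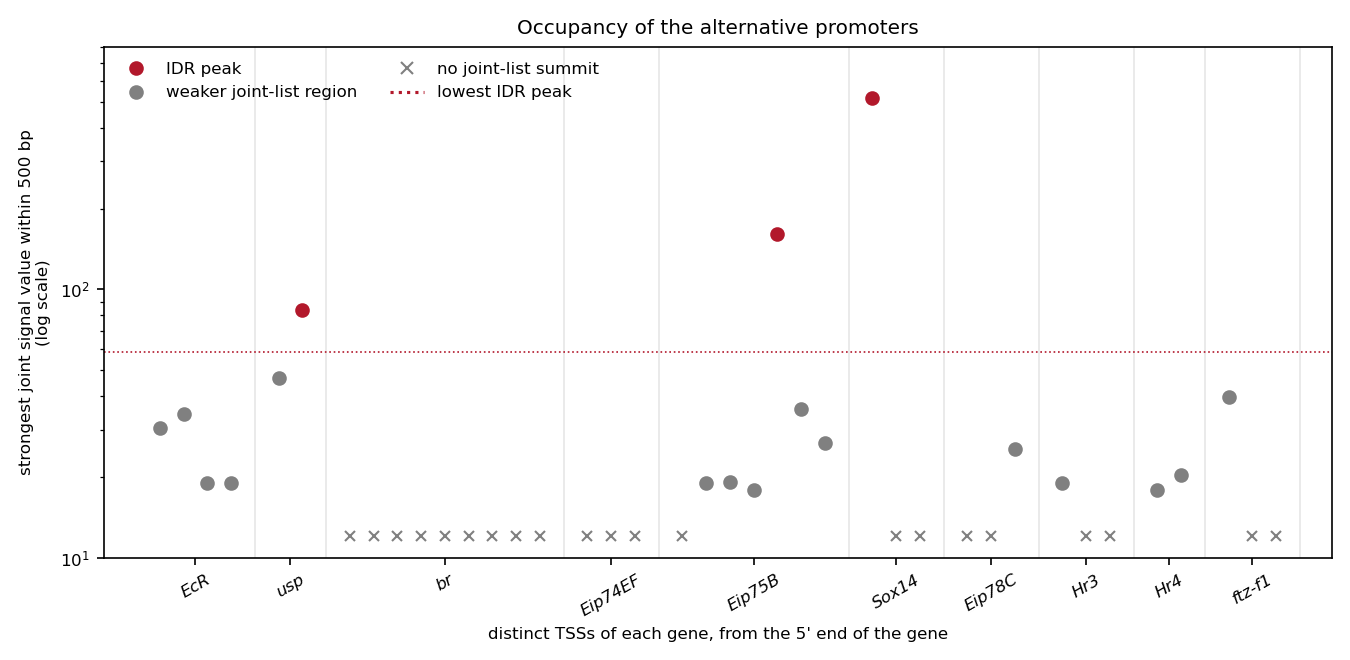
Strongest joint signal value (log scale) within 500 bp of each of the 39 distinct TSSs, ordered from the 5' end of each gene. Red points passed the IDR threshold, grey points are weaker joint regions and crosses, drawn at the foot with no value, are starts without a joint summit. Of the 39 starts, 3 are red, 15 are grey and all 9 of br and all 3 of Eip74EF are crosses.

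Long genes hold more summits, so the members were also set beside genes above a minimum length. Length was not matched further. The 8 members of at least 30 kb had a median span of 63.3 kb, against 48.4 kb over all 663 such genes. Of genes of at least 10 kb, 43.4% held an IDR peak. Among the 663 protein-coding genes of at least 30 kb, to which 8 of the members belong, 49.8% held an IDR peak anywhere and 41.9% held one outside the promoters, against 8 of 8 members in both cases. At a promoter, 1 of 8 members, Eip75B, had an IDR peak, against 21.3% of long genes, which is near the background. A joint region stood at a promoter in 57.5% of long genes and 6 of 8 members, and anywhere in 98.3% and 8 of 8, where little room is left for a difference.

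Several peaks in a gene were also common in the set. At least 3 IDR peaks were held by 4 of 10 members, Hr3, Hr4, ftz-f1 and Eip75B, against 1.47% of all protein-coding genes. Among genes of at least 30 kb, 4 of 8 members held as many, against 17.5%. At least 5 were held by Hr4 and Eip75B, which is 2 of 10 against 0.359%, and 2 of 8 against 5.28%. Per length, the 8 long members held 22 IDR peaks over 535 kb, or 0.411 per 10 kb, beside 0.178 per 10 kb pooled over all 663 long genes. The medians per gene were 0.385 and 0 per 10 kb. The spread among members was wide. Hr4 at 0.909 and Hr3 at 0.899 per 10 kb stood at percentiles 95.3 and 94.9 of the long genes. EcR at 0.123 and br at 0.111 stood at 54.8 and 53.8, below the pooled 0.178. Only 49.8% of the long genes held an IDR peak, so any gene with 1 peak stands above the middle.

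**Figure D3:**
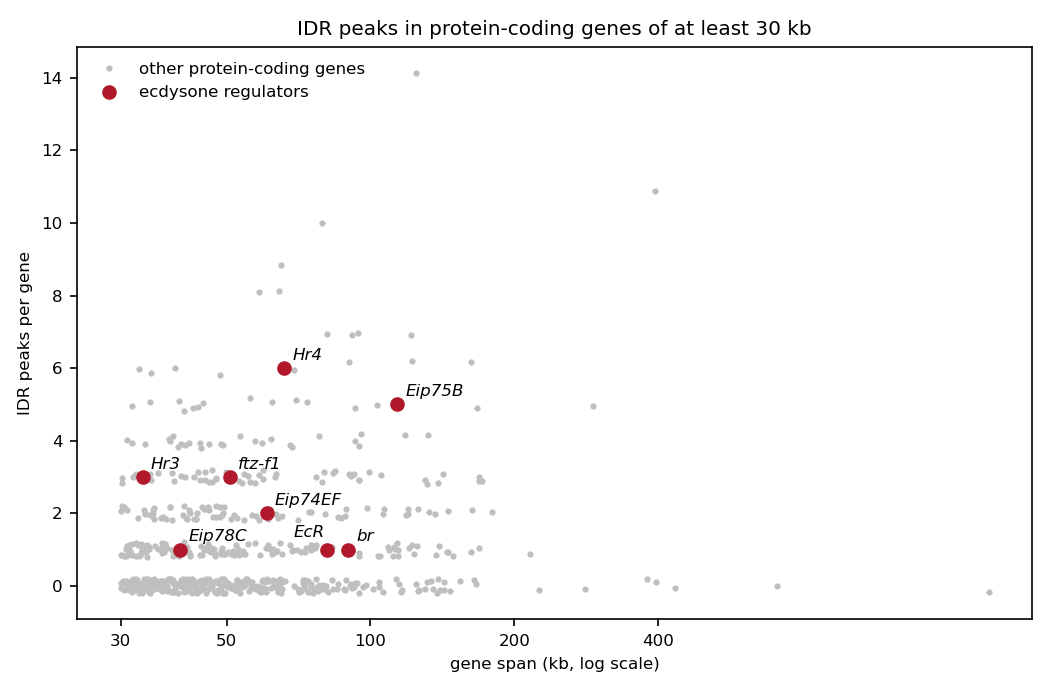
Number of IDR peaks (vertical axis) against gene span in kb (log scale) for the 663 protein-coding genes of at least 30 kb. Red points are the 8 members of that length and grey points the other genes, moved slightly up or down at random so that they can be told apart. Hr4 with 6 and Eip75B with 5 hold the most peaks of the members, and EcR, br and Eip78C hold 1 each. Per length, Hr4 and Hr3 stand highest of the 8.

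The 21 intronic peaks lay between 1852 and 22007 bp from the nearest TSS of their gene. Their median distance was 7909 bp, and 16 lay beyond 5000 bp. No such distances for peaks outside promoters in other long genes stand beside these, so they do not set the members apart. Of the 24 peaks, 3 lay within 500 bp of any annotated TSS, against 53.9% of all IDR peaks. Within genes of at least 30 kb, 20.7% of IDR peaks were at a start of the gene, against 1 of 22 in the members. Of the 21 intronic peaks, 17 lay between the first and the last TSS of the gene, that is, upstream of at least 1 alternative start. The share in all genes of at least 30 kb with several starts was 70.7%, and the stretch between first and last TSS made up 63.6% of the members' spans and 52.8% of those genes' spans. The position of the intronic peaks between alternative starts was therefore near the background.

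Summits in coding sequence were rare among all IDR peaks, at 0.262%, and none of the members' 24 lay there. Of the 144 joint regions, 1 did, against 5.28%, and that was coding sequence of a gene other than the member. None of the 24 lay in an annotated mobile element, against 0.32%. In 24 peaks, shares of 0.262% and 0.32% correspond to less than 1 peak, so both counts are near the background. Of the members' 144 joint regions, 24 passed the IDR threshold, against 13.8% of the whole list. The median signal of the members' 24 peaks was 97.9, ranging from 58.3 to 519, beside 89.3 over all IDR peaks.

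The members' peaks were matched in both replicates about as often as IDR peaks in general. The IDR threshold itself rests on agreement between replicates, so such matches are in part built in. Among the 3438 strongest regions of each replicate, 18 of 24 peaks had a summit within 150 bp in both, against 69.5% of all IDR peaks, and in the complete lists of 30000 regions 23 of 24 did, against 96%. Taken singly, 23 of the 24 were among the strongest of replicate 2 and 19 among those of replicate 3, beside 86.3% and 80.9% of all IDR peaks. The 6 peaks not matched in both were those of Eip75B at 111 and 64.9, Eip78C at 59.9, Hr4 at 58.3 and ftz-f1 at 80.6 and 62.6. All genes except Eip78C kept at least 1 peak matched among the strongest of both replicates.

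**Figure D4:**
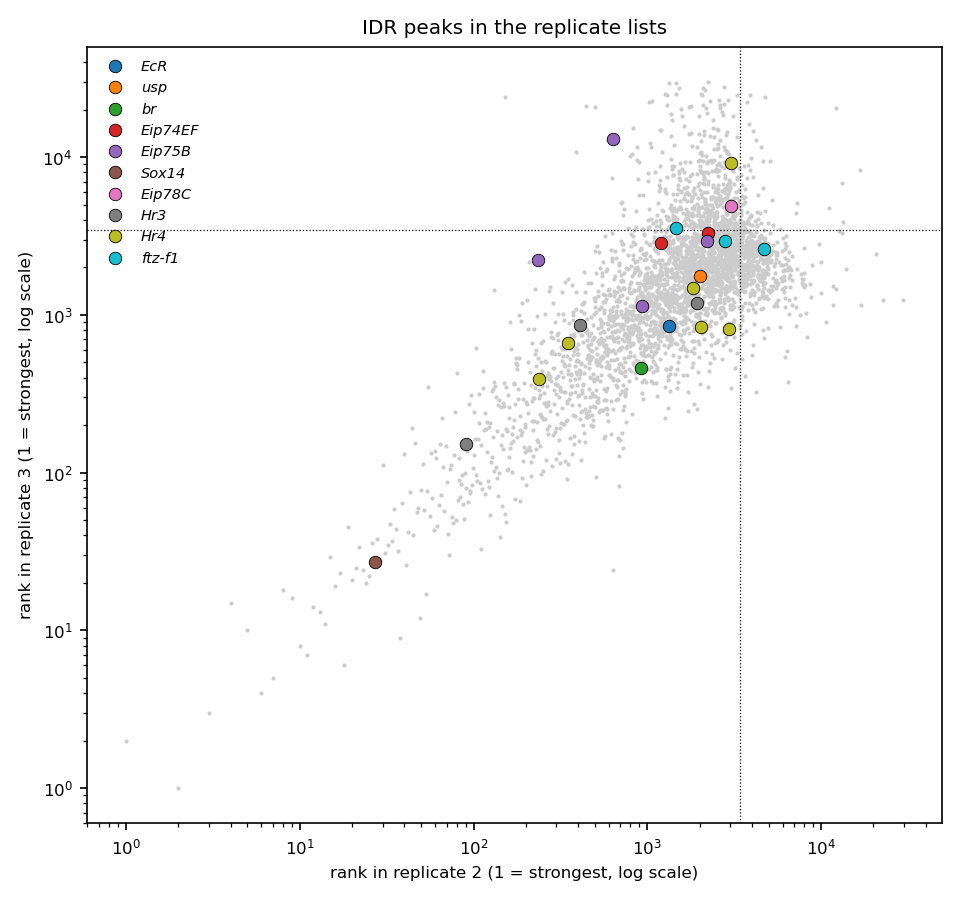
Rank of each IDR peak in replicate 2 (horizontal axis) and replicate 3 (vertical axis), both on log scales with 1 as the strongest. Coloured points are 23 of the members' 24 peaks, grey points the other IDR peaks listed in both replicates, and dotted lines mark rank 3438. Sox14 stands at rank 27 in both replicates, and a peak of Eip75B lies at 635 and 12975.

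Other genes of the ecdysone pathway held IDR peaks in part. Of 49 further pathway genes, all matched in the annotation, 11 (22.4%) had an IDR peak at a promoter and 18 (36.7%) had one anywhere, beside the 16.5% and 20.6% of all protein-coding genes given above. Among 8 genes of ecdysone synthesis, the Halloween genes and their partners, 1 had a promoter peak: shd, for the hydroxylase of the last step, at 58.4 with no match in replicate 2. Of 3 genes of uptake and breakdown and 6 of prothoracic gland control, none had an IDR peak in the gene or at a promoter. Most of these genes are short, and counts this small do not set them apart from the background.

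Of 7 receptor cofactor genes, 3 had a promoter peak, beside the 16.5% of all protein-coding genes: tai, a coactivator of EcR, at 127, the methyltransferase gene trr at 79.6, and the demethylase gene Utx at 71.0. The tai peak lies near a start of CG9586 as well, and that of trr near one of mRpL16. A further 2 cofactor genes had a peak in the gene only. Of the 3 further nuclear receptor genes, Hr96 had 197 at a promoter near which EMC6 also starts, and Hr78 had 138, whereas Hr39 had none. With 7 and 3 genes, and genes of very different length, these counts were not compared between roles.

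Among 22 further ecdysone response genes, 5 (22.7%) had a promoter peak, beside 16.5% of all protein-coding genes, which is near the background. A peak anywhere was held by 10 (45.5%), beside 20.6%. These genes span from 901 to 94771 bp, and length was not matched in that comparison. The strongest anywhere was in gce, a juvenile hormone receptor gene named after its value was seen, at 313 (rank 109), with 186 and 128 in the replicates and away from its promoters. The strongest at a promoter was E23, an ABC transporter gene, at 285 (rank 135), with 168 in replicate 2 and 113 in replicate 3. Ldh, the lactate dehydrogenase gene listed as ImpL3, had 211 (127 and 86.3), and Eip63F-1, a calcium-binding protein gene, had 195 (98.4 and 90.6). The cell death gene hid had 106 and vri 96.0. Each of these peaks ranked within the 3438 strongest of both replicates. None of the 11 promoter peaks reached the 519 of Sox14.

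The bases under the members' summits were like those under IDR peaks in general. The median A+T content of the 201-base windows was 66.7% in the members and 66.7% over all IDR peaks, beside 62.2% in the joint regions that did not pass and 57.8% in the genome. Single windows ran from 47.8% in Hr4 to 80.1% in Eip75B.

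Motif letters were counted in the 201-base windows, either strand allowed, and a match is a description and not a binding site. TATCGATA, bound by DREF, was in 0 of 24 windows beside 3.14% of all IDR peaks. The BEAF-32 core CGATA, which TATCGATA contains, was in 6 (25%) beside 28.3%, and the GAGA factor letters GAGAG were in 3 (12.5%) beside 19.9%. TATAAA, the TATA box, was in 5 (20.8%) beside 41.3%, and ATTGTT, a Sox core, in 1 (4.17%) beside 24.2%. AGGTCA, the nuclear receptor half-site, was in 0 beside 4.04%, GGTCACACT, bound by M1BP, in 0 beside 0.902%, and CACGTG, an E-box, in 0 beside 1.77%. With 24 windows, shares of a few percent correspond to less than 1 window or about 1. Most members' peaks lay away from TSSs, so the 1586 IDR peaks more than 500 bp from any TSS are the closer comparison. There, TATCGATA was in 0 of 21 members' windows beside 0.315%, and CGATA in 5 (23.8%) beside 20.7%. GAGAG was in 2 (9.52%) beside 22.6%, TATAAA in 4 (19.0%) beside 39.5%, and ATTGTT in 1 (4.76%) beside 24.2%.

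A further set of letters, AGNTGGCGC of the CTCF core, was added only after the members' sequences had been read and its letters seen there. It stood in 3 of 24 windows (12.5%), 1 each in EcR, Eip75B and Hr4, beside 2.04% of all IDR peaks and 0.859% of the joint regions that did not pass. Among the 1586 IDR peaks more than 500 bp from any TSS it stood in 2.46%, and the 3 members' windows are all of that kind. The EcR window held it 3 times. Because the motif was picked from these same windows, its share in the members is set by that choice and supports nothing about them. Those peaks measured 111 in EcR, 111 in Eip75B and 99.5 in Hr4, and the Eip75B peak is the one that replicate 3 ranked at 12975.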

How the data were processed

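E(var)3-9-GFP binding was measured in 2 embryo replicates. The authors deposited region lists in dm6 and dm3, and per the notes deposited with the samples these are peaks and background for IDR input per replicate, the same from both replicates' alignments with a control, and joint regions past an IDR threshold. Neither aligner, caller nor IDR threshold is named in the labels or notes. The deposited signal value is a score of the caller and served for ranks and description alone. No result uses the −log10 q-value, which the authors deposited beside it. Signal tracks, alignments, the control and the dm3 lists were not used here. Read depth is unknown.

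Summits, in 1-based dm6 coordinates, were assigned to genes of Ensembl release 115. A promoter is within 500 bp of a TSS, and a replicate match is a summit within 150 bp, among the 3438 strongest regions of each replicate or in the complete lists. A summit counts for every gene whose span holds it. Windows of 100 bp either side of summits were read from RefSeq Release 6. The 10 genes, the 49 pathway genes and the other lists were chosen with earlier results of these data known, so no test was run and counts stand beside the share over all features. Of 9 motifs, 8 were listed with the design and 1 was added after the sequences were read. The comparison of peaks between alternative starts and the motif share among peaks away from TSSs were also added after the data were seen. Besides the members, named genes are up to 10 pathway genes with the strongest promoter peaks, genes starting within 500 bp of a member's summit, the rank neighbours of Sox14, and genes said to be named later. The gene shd and the genes starting near cofactor and Hr96 peaks were named after their values were seen. Alternatives were other promoter distances and TSS sets, the 860 strongest IDR peaks, each replicate alone, nearest-TSS assignment and other matching rules. Summit assignment, matching and motif search were tested on simulated data. Scripts ran in Python 3.11.15 (pandas 2.3.3, numpy 2.4.6, matplotlib 3.10.9, scipy 1.17.1).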

Additional observations from a re-analysis of the deposited data

How the results depend on the processing

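Of 44 alternatives of 7 counts, 38 stayed within 1.5 times of the value reported and 6 moved; the cause was not tested. With a single TSS per gene, 1 member (Sox14) had an IDR peak at a promoter in place of 3. Among the 860 strongest IDR peaks, 5 members held a peak in place of 10, with 8 peaks in place of 24, and 5 other pathway genes had a promoter peak in place of 11; by construction this list is shorter. Within 250 bp of a TSS, 7 other pathway genes had a promoter peak, and 5 members had a joint region at a promoter in place of 8. Sox14, at 260 bp, is also lost at that distance.

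With single replicates, the number of members with a promoter peak was 3 without replicate 2 and 4 without replicate 3, which added ftz-f1. Members with a peak anywhere were 9 without replicate 2, which lost Eip78C, and 10 without replicate 3. IDR-sized lists held 25 and 29 peaks in the members, other pathway genes 9 in both, members with a region at a promoter 6 and 7, and regions in the members 128 and 195. Assigning summits to the nearest coding TSS alone left 8 members and 21 peaks. Merging overlapping regions, an alternative chosen after seeing the data, left 24 and 131. The strongest promoter signal of ftz-f1 moved from 39.7 to 42.8 when any base within 500 bp counted. No paired analysis was possible because there is 1 group. Read depth is unknown, and 2 replicates of 1 line limit what the ranks show.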
